A study of Homo sapiens with 20 samples.

Results

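The mRNAs of 3 EGR transcription factors, EGR1, EGR2 and EGR3, and of their NAB corepressors, NAB1 and NAB2, were followed in WT and CD47- Jurkat T lymphoblasts. These 5 genes were chosen by name from the 60719 genes of the deposited table, with earlier results of these data known, among them the rise of EGR1 on activation in WT cells, and all 5 were among the 16327 genes that passed a low-count filter. WT cells were the Jurkat T cell leukemia line, and CD47- cells were JinB8, a single somatic Jurkat mutant line that lacks CD47. Each line gave 10 RNA sequencing libraries. Untreated cells were sequenced at 1 h. The antibodies anti-CD3 and anti-CD28, coated on plates to engage the T cell receptor complex and its costimulator, were given alone (CD3+CD28) or with the secreted CD47 ligand thrombospondin-1 (CD3+CD28+TSP1), other cells had TSP1 alone, and these 3 treatments were sequenced at 1, 3 and 6 h. TSP1 was used at 1 μg/mL and anti-CD28 at 4 μg/mL. All cells were plated in the same serum-free medium with insulin, transferrin, selenite and hydrocortisone. No untreated library exists at 3 or 6 h and each condition was sequenced once, so p-values measure the spread between libraries of different treatments and times. Nothing in the descriptions says that libraries came from separate cultures.

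EGR genes are immediate early genes. T cell receptor signals pass through the RAS and ERK kinases to serum response factor and its ELK partners, which bind CArG boxes in EGR promoters, and the encoded zinc finger proteins then bind GC-rich sites in other promoters. EGR1 drives early activation genes, whereas EGR2 and EGR3 also restrain T cell responses. NAB1 and NAB2 bind a repression domain of EGR1, EGR2 and EGR3 and bring the NuRD remodeling complex to their targets, and NAB2 is itself an EGR target, which closes a feedback loop.

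EGR1 lies on chromosome 5 of GRCh38 from 138465479 to 138469303 on the plus strand, EGR2 on chromosome 10 from 62811996 to 62819167 on the minus strand, NAB1 on chromosome 2 from 190646746 to 190692766 on the plus strand and NAB2 on chromosome 12 from 57089043 to 57095476 on the plus strand.  Promoter sequence was read from RefSeq windows on GRCh38.p14, which matched EGR1, EGR2, NAB1 and NAB2. The stretches just upstream of EGR1, of the main EGR2 transcript and of NAB2 are shown because the first pair carry the serum response motif and the last an EGR-type motif. They end before the first annotated exon base of the gene, except that the EGR2 stretch lies within the span of longer EGR2 transcripts, outside their exons. They are written 5′ to 3′ on the gene's strand, and capitals mark CArG boxes in EGR1 and EGR2 and the complement of GCGTGGGC in NAB2.
EGR1, chr5:138465279-138465478, plus strand: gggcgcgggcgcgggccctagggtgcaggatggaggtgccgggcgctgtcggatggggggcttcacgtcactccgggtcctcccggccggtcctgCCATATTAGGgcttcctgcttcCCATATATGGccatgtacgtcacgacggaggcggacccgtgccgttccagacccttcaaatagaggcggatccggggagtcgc
EGR2, chr10:62816374-62816566, minus strand: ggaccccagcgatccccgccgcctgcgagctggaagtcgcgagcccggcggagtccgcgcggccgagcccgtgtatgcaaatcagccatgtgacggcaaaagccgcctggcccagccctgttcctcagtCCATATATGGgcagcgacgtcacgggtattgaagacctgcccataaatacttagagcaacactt
NAB2, chr12:57088914-57089042, plus strand: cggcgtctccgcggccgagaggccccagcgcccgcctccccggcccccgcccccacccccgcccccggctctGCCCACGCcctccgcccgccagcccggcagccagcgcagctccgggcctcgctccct

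The search covered both strands of the 250 bases before each start. EGR1 held 2 CArG boxes, and 11 of 35116 promoter windows (0.0313%) held 2 or more. The main EGR2 start held 1 and the other EGR2 starts held none, while 1.16% of windows held at least 1. NAB1 and NAB2 held none. GCGTGGGC was found before the NAB2 start and before 2 of 3 NAB1 starts, and 1.89% of windows held it. At 1 of those NAB1 starts a match ran on to GCGTGGGCG, a longer motif that includes the shorter and was held by 0.72% of windows. Neither was found before EGR1 or EGR2. The short site CGTCA, bound by CREB proteins, occurred 2 times before EGR1 and 2 times before the main EGR2 start, and 4.76% of windows held it 2 or more times. It was absent before the other EGR2 starts. The full site TGACGTCA was found before none of these starts, against 1.65% of windows. These matches describe letters, not binding.

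The libraries held 16107921 to 31737616 gene counts. Levels are given as CPM, the usual count scaling for library size, with TMM factors, and 3 counts, taken as the limit of detection, correspond to at most 0.156 CPM. CD47 itself was at 253 to 372 CPM in WT libraries and at 124 to 165 CPM in CD47- ones, a difference of −1.10 in log2 (edgeR adjusted p = 1.05e-10, SE 0.0784), so that the mutant line kept part of the mRNA. All 11 T cell markers examined were present in every library. TRAC, the constant region of the T cell receptor α chain, was at 122 to 301 CPM in WT and at 15 to 28.7 CPM in CD47- cells, whereas CD28, the target of the activating antibody, was at 25 to 65.8 against 203 to 262 CPM and CD2 at 35.1 to 50.8 against 79.5 to 143 CPM. The part of these differences in the values below was not tested. Of 12 markers of other cell types, the highest was COL1A1, at 1.29 to 3.16 CPM in WT and 3.18 to 6.17 CPM in CD47- cells.

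EGR1, the founding zinc finger factor of the family, was highest at 1 h and fell in every treatment. In WT cells at 1 h it was at 76.7 CPM untreated, 66.1 with TSP1, 154 with CD3+CD28 and 186 with CD3+CD28+TSP1. At 3 h it was at 14.3, 90.4 and 83.4 CPM and at 6 h at 3.56, 10.9 and 17.5 CPM with TSP1, CD3+CD28 and CD3+CD28+TSP1. Activated WT libraries were thus above the TSP1 library at each time. In CD47- cells at 1 h EGR1 was at 55.6 CPM untreated, 58.8 with TSP1, 61.7 with CD3+CD28 and 64.2 with CD3+CD28+TSP1. It was at 14.2, 28.1 and 44.6 CPM at 3 h and at 4.62, 4.13 and 5.25 CPM at 6 h, in the same order of treatments. The 4 CD47- libraries at 1 h lay below all 4 WT libraries, whereas the TSP1 libraries of the lines at 3 h were almost equal. The lowest EGR1 value rested on 89 counts.

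EGR2, a zinc finger factor linked to T cell anergy and tolerance, started lower than EGR1 in both lines and fell further in WT cells. In CD47- cells the log2 changes from 1 to 6 h were −3.63 for EGR1 and −3.27 for EGR2 without activation. With activation they were −3.74 and −4.15. In WT cells at 1 h EGR2 was at 37.7 CPM untreated, 41.8 with TSP1, 103 with CD3+CD28 and 104 with CD3+CD28+TSP1. At 3 h the values were 3.59, 28.4 and 25.6 CPM and at 6 h 0.759, 1.23 and 3.92 CPM, with TSP1, CD3+CD28 and CD3+CD28+TSP1. The 6 h values came from 19, 28 and 120 counts, so the lowest have wide counting error. In CD47- cells at 1 h EGR2 was at 14.6 CPM untreated, 16.2 with TSP1, 24.0 with CD3+CD28 and 21.8 with CD3+CD28+TSP1. It was at 2.28, 4.68 and 4.05 CPM at 3 h and at 1.58, 1.06 and 1.51 CPM at 6 h. The lines did not overlap at 1 h and overlapped at 3 and 6 h.

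EGR3, which acts beside EGR2 in T cells, had low levels that also fell from 1 h on. In WT cells at 1 h it was at 34.8 CPM untreated, 24.2 with TSP1, 42.1 with CD3+CD28 and 57.6 with CD3+CD28+TSP1. It was at 2.25, 10.4 and 10.8 CPM at 3 h and at 0.36, 1.05 and 2.71 CPM at 6 h, with TSP1, CD3+CD28 and CD3+CD28+TSP1. The 0.36 CPM of the TSP1 library at 6 h came from 9 counts. In CD47- cells at 1 h EGR3 was at 6.73 CPM untreated, 8.93 with TSP1, 11.2 with CD3+CD28 and 10.3 with CD3+CD28+TSP1. It was at 1.87, 4.63 and 5.5 CPM at 3 h and at 1.41, 1.19 and 1.38 CPM at 6 h. All CD47- values at 1 h were below the lowest WT value, and at 6 h the CD47- values lay within the WT range.

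**Figure D1:**
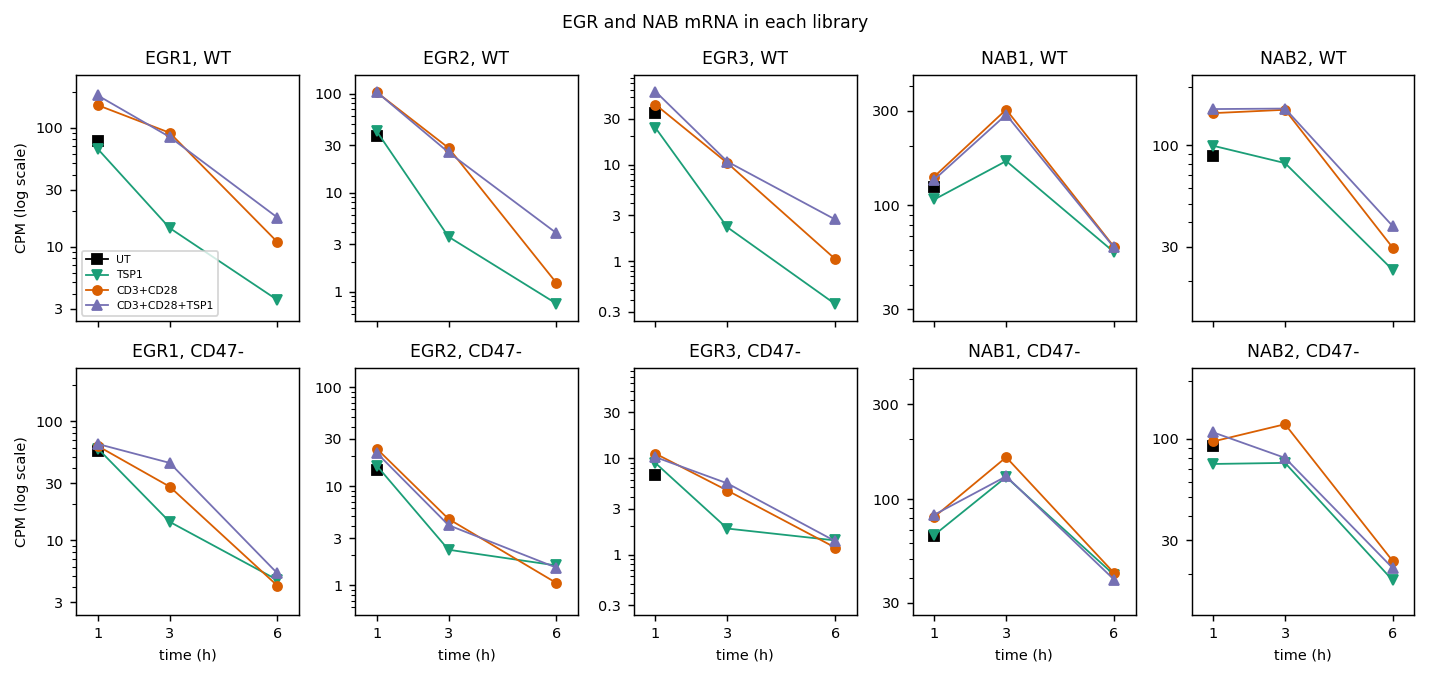
CPM on a log axis against time in h for the 5 genes in WT (top) and CD47- cells (bottom). Each point is 1 library, lines join the libraries of a treatment, and both panels of a gene share their axis. The EGR genes fall from 1 h on, NAB1 peaks at 3 h (304 CPM in WT cells with CD3+CD28) and NAB2 falls between 3 and 6 h.

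NAB1 followed another course, with its highest level at 3 h in every treatment of both lines. In WT cells it was at 107 to 139.8 CPM in the 4 libraries at 1 h. It was at 167, 304 and 286 CPM at 3 h and at 58.3, 61.9 and 61.5 CPM at 6 h, with TSP1, CD3+CD28 and CD3+CD28+TSP1. In CD47- cells it was at 65.1 to 83.4 CPM at 1 h, at 129 to 162 CPM at 3 h and at 41.6, 42.5 and 39.4 CPM at 6 h. The lines did not overlap at any of the 3 times, with WT cells higher. How many of all genes separate the lines at a time was not counted, for NAB1 or for the EGR genes above.

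NAB2 stayed near its 1 h level until 3 h. In WT cells at 1 h it was at 88.6 CPM untreated, 99.6 with TSP1, 147 with CD3+CD28 and 154 with CD3+CD28+TSP1. It was at 81.0, 153 and 155 CPM at 3 h and at 22.7, 29.5 and 38.2 CPM at 6 h. In CD47- cells at 1 h NAB2 was at 91.7 CPM untreated, 74.2 with TSP1, 97.0 with CD3+CD28 and 108 with CD3+CD28+TSP1. It was at 75.2, 119 and 79.8 CPM at 3 h and at 18.5, 23.3 and 21.4 CPM at 6 h. The lines overlapped at each time. The last 69 bases of NAB2, from 57095408 to 57095476, overlap STAT6 on the opposite strand, and reads there cannot be assigned without strand information, which is not given in the sources used here.

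Levels of different genes were compared per transcript length, as RPKM, the sum over a gene's isoforms of CPM divided by isoform length in kilobases (26 of 27 isoforms, since 1 had no length), so that it also moves with the estimated isoform mix. In WT cells at 1 h NAB2 was at 38.3 to 67.2 RPKM, NAB1 at 35.6 to 47.4, EGR1 at 21.1 to 59.3, EGR2 at 16.6 to 44.6 and EGR3 at 5.56 to 13.2. Only EGR3 stood apart there, since the ranges of the other 4 genes overlapped. At 6 h the order was NAB1 at 19.5 to 20.9, NAB2 at 9.66 to 16.3, EGR1 at 1.13 to 5.59, EGR2 at 0.322 to 1.83 and EGR3 at 0.0797 to 0.804 RPKM. Both corepressors were then above every EGR value, while EGR1 and EGR2 overlapped, as did EGR2 and EGR3. In CD47- cells NAB2 was above the other members already at 1 h, at 33.4 to 47.1 RPKM against 19.8 to 27.2 for NAB1 and 17.7 to 20.5 for EGR1. EGR2 was at 5.78 to 10.6 and EGR3 at 1.59 to 2.62 RPKM. At 6 h the CD47- cells had NAB1 at 11.2 to 13.8, NAB2 at 7.94 to 9.98, EGR1 at 1.32 to 1.67, EGR2 at 0.569 to 0.665 and EGR3 at 0.323 to 0.768 RPKM, and only EGR2 and EGR3 overlapped. The highest EGR3 value there, 0.768, was the TSP1 library, and the others were at 0.323 and 0.366.

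The change with time was tested in each line by the edgeR quasi-likelihood test in a model with a term for each treatment. At 3 h against 1 h in WT cells, EGR1, EGR2 and EGR3 were lower, NAB1 was higher and NAB2 was not called, so 4 of 5 members passed an adjusted p of 0.05, against 34.3% of all genes. The log2 fold changes were −1.33 for EGR1 (SE 0.261, edgeR adjusted p = 0.00137), −2.36 for EGR2 (SE 0.292, edgeR adjusted p = 3.98e-05) and −2.54 for EGR3 (SE 0.274, edgeR adjusted p = 1.23e-05). NAB1 rose, with a log2 fold change of 0.96 (edgeR adjusted p = 4.74e-05, SE 0.122), and NAB2 was at −0.07 (SE 0.117, edgeR adjusted p = 0.67). The same 4 members were called in CD47- cells in the same directions, against 38% of all genes. There EGR1 was at −1.19 (SE 0.266), EGR2 at −2.51 (SE 0.329), EGR3 at −1.40 (SE 0.292) and NAB1 at 0.87 (SE 0.123), with edgeR adjusted p-values from 7.29e-05 to 0.00336. NAB2 was at −0.04 (SE 0.118, edgeR adjusted p = 0.82). The 3 h values were also taken by activation state, with 1 library without activation in each line at 3 h. In WT cells EGR1 was at −2.32 without activation and at −0.97 with it, EGR2 at −3.47 and −1.94, EGR3 at −3.71 and −2.23 and NAB1 at 0.54 and 1.10. In CD47- cells EGR1 was at −2.01 and −0.80, EGR2 at −2.75 and −2.39, EGR3 at −2.06 and −1.09 and NAB1 at 0.98 and 0.83, in the same order. The difference by activation was not tested. The sign of the NAB2 value at 3 h turned in both lines with quantile normalization and with library totals alone, and in CD47- cells also with upper-quartile factors.

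At 6 h all 5 members were lower than at 1 h in both lines, against 50.5% of genes called in WT (24.8% lower) and 53% in CD47- cells (27% lower). In WT cells the log2 fold changes were −3.80 for EGR1 (SE 0.296), −5.50 for EGR2 (SE 0.364), −5.02 for EGR3 (SE 0.329), −1.06 for NAB1 (SE 0.124) and −2.15 for NAB2 (SE 0.124), with edgeR adjusted p-values from 1.52e-08 to 8.45e-06. In CD47- cells they were −3.75 for EGR1 (SE 0.313), −3.88 for EGR2 (SE 0.376), −2.93 for EGR3 (SE 0.336), −0.90 for NAB1 (SE 0.125) and −2.14 for NAB2 (SE 0.127), with edgeR adjusted p-values from 1.52e-08 to 3.69e-05. Ordered by fold change among all 16327 genes, EGR2 held place 2 from the lowest in WT and place 6 in CD47- cells. In the model with a mean for each line, activation state and time, all 5 were also lower in both lines without activation, where the 6 h mean is the TSP1 library alone. In WT cells these values ran from −0.98 for NAB1 to −6.33 for EGR3 and in CD47- cells from −0.66 for NAB1 to −3.63 for EGR1.

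**Figure D2:**
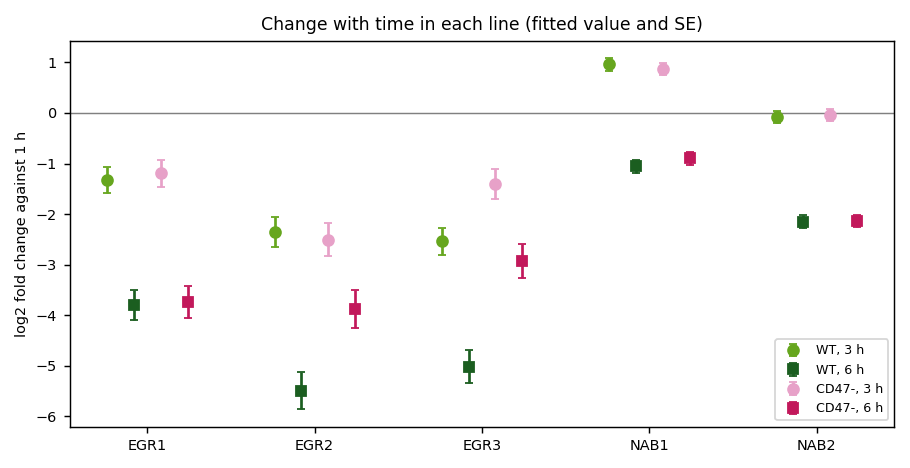
Log2 fold change against 1 h for each gene, with WT in green and CD47- in pink, 3 h as circles and 6 h as squares, and bars of 1 SE from the edgeR fit. NAB1 is above 0 at 3 h and below at 6 h, and at 6 h EGR3 falls further in WT than in CD47- cells, a difference that for EGR2 did not pass the test.

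The difference between the lines in the change from 1 to 6 h was called for EGR3 only, with a log2 value of 2.08 and a smaller fall in CD47- cells (edgeR adjusted p = 0.0121, SE 0.497), against 16.6% of all genes. EGR2 differed by 1.62 (SE 0.558) and did not pass (edgeR adjusted p = 0.064), though DESeq2 called it (1.74, adjusted p = 0.0443). EGR1, NAB1 and NAB2 differed by 0.01 to 0.16. The 3 WT libraries at 6 h held 9, 24 and 83 EGR3 counts. With activation, in the model of means by activation state and time, it was 1.62 (SE 0.479, edgeR adjusted p = 0.0604). Without activation it was 3.87, and only this value is given because each line has 1 such library at 6 h, the WT one with 9 counts. Leaving out the CD47- library given TSP1 at 6 h ended the call (1.85, edgeR adjusted p = 0.0557). At 3 h no member was called, against 4.28% of all genes, and EGR3 was at 1.14 (SE 0.399, edgeR adjusted p = 0.124).

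Between the lines over all 10 libraries each, EGR3 alone was called lower in CD47- cells, against 40.4% of all genes called and 20.6% called lower, and all 5 members had negative values. EGR1 spanned 3.56 to 186 CPM in WT libraries and 4.13 to 64.2 CPM in CD47- ones, mostly across times. The log2 fold changes were −1.80 for EGR3 (SE 0.683, edgeR adjusted p = 0.039), −1.93 for EGR2 (SE 0.77, edgeR adjusted p = 0.0501), −1.04 for EGR1 (SE 0.62, edgeR adjusted p = 0.191), −0.78 for NAB1 (SE 0.327, edgeR adjusted p = 0.0606) and −0.45 for NAB2 (SE 0.386, edgeR adjusted p = 0.375). With a block for the 10 pairs of equal treatment and time, all 5 members were called lower, against 54.9% of all genes called and 27.6% called lower. The blocked values were −0.91 for EGR1 (SE 0.192, edgeR adjusted p = 0.000988), −1.62 for EGR2 (SE 0.26, edgeR adjusted p = 9.68e-05), −1.28 for EGR3 (SE 0.291, edgeR adjusted p = 0.00179), −0.72 for NAB1 (SE 0.0691, edgeR adjusted p = 6.21e-07) and −0.44 for NAB2 (SE 0.0862, edgeR adjusted p = 0.000587). The call of EGR3 without the block was lost in 10 of 20 fits that each left out 1 library, of either line. It was also lost with limma voom, at −0.996 (limma adjusted p = 0.361). DESeq2 called EGR2 and NAB1 as well (DESeq2 adjusted p = 0.0297 and 0.0384).

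Within the matched pairs, the difference between the lines was taken on log2 CPM with a pseudocount of 0.5. NAB1 was lower in CD47- cells in 10 of 10 pairs, by 0.374 to 1.14, and EGR1, EGR2 and NAB2 were lower in 9 and EGR3 in 8. How many of all genes reach such counts, or separate by time or activation, was not taken. With the pair block 27.6% of all genes were called lower, so these counts are not particular to the members. For EGR1 the 6 activated pairs lay between −1.67 and −0.897 and the 4 pairs without activation between −0.459 and 0.336, with no overlap. The rise of EGR1 on activation in WT cells was known when the genes were chosen, so this split is a description, without a test. For EGR3 the pairs were between −2.43 and −1.39 at 1 h and between −0.768 and 1.15 at 6 h, with no overlap either. The pair with TSP1 alone at 6 h was the only one in which EGR1 and EGR2 were higher in CD47- cells, and EGR3 was highest there too. In that pair the WT library held 89 EGR1, 19 EGR2 and 9 EGR3 counts.

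**Figure D3:**
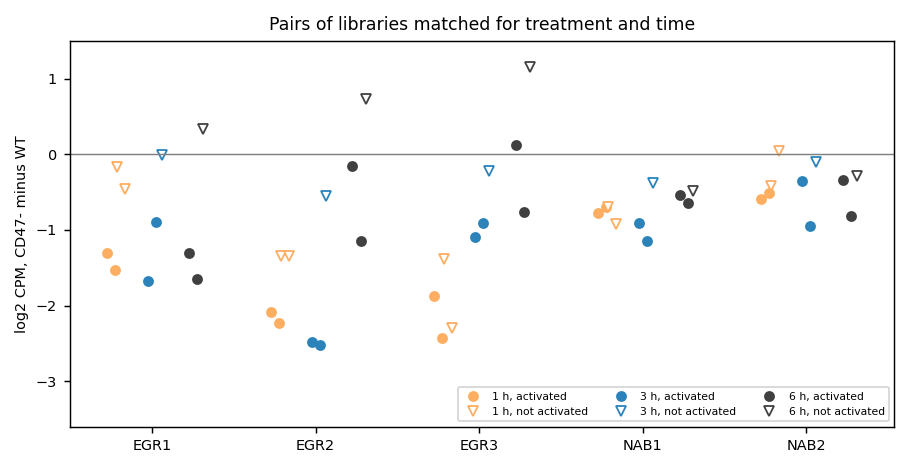
Log2 CPM of CD47- minus WT in the 10 pairs of equal treatment and time, by gene. Colors give the time and filled circles the activated pairs, and points below 0 are lower in CD47- cells. All NAB1 pairs are below 0. The EGR1 pairs separate by activation, a description, since the rise of EGR1 on activation in WT cells was known beforehand.

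The effect of activation on these genes had been seen in earlier results before they were chosen, so it is given as a description, without a test. With CD3+CD28+TSP1 against TSP1 alone over the 3 times, WT cells had a log2 fold change of 2.03 for EGR1 (SE 0.281), 2.00 for EGR2 (SE 0.33), 1.79 for EGR3 (SE 0.302), 0.39 for NAB1 (SE 0.122) and 0.77 for NAB2 (SE 0.12). Over all genes 0.0919% were called in this comparison. In CD47- cells the values were 0.68 for EGR1 (SE 0.289), 0.44 for EGR2 (SE 0.363), 0.57 for EGR3 (SE 0.323), 0.09 for NAB1 (SE 0.124) and 0.30 for NAB2 (SE 0.122), and 0% of genes were called, with 2636 at an unadjusted p under 0.05. Each member had a smaller value in CD47- cells, and the difference between the lines was not tested for them.

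By time, with both activated libraries against those without activation, EGR1 in WT cells was 1.25 higher at 1 h (SE 0.208), 2.60 at 3 h (SE 0.298) and 2.01 at 6 h (SE 0.333) on the log2 scale. EGR2 was 1.38, 2.91 and 1.81 higher and EGR3 0.76, 2.23 and 2.42 higher. NAB1 was 0.82 higher at 3 h (SE 0.129), against 0.25 at 1 h and 0.08 at 6 h, and NAB2 was 0.68, 0.93 and 0.58 higher. In CD47- cells EGR1 was 0.14 higher at 1 h (SE 0.207), 1.35 at 3 h (SE 0.284) and 0.03 at 6 h (SE 0.339). EGR2 was at 0.57, 0.94 and −0.30, EGR3 at 0.46, 1.43 and −0.13, NAB1 at 0.33, 0.18 and −0.02 and NAB2 at 0.31, 0.41 and 0.27. The values for the EGR genes were thus highest at 3 h in both lines, except for EGR3 in WT cells, whose SE at 6 h was 0.625. At 1 h with CD3+CD28 against untreated cells, 1 library each, log2 CPM differed by 1.00 for EGR1, 1.44 for EGR2, 0.27 for EGR3, 0.18 for NAB1 and 0.73 for NAB2 in WT cells and by 0.15, 0.70, 0.69, 0.32 and 0.08 in CD47- cells. Untreated cells at 1 h already had 76.7 CPM EGR1 in WT and 55.6 in CD47- cells, above any library of the same line without activation at 3 or 6 h.

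**Figure D4:**
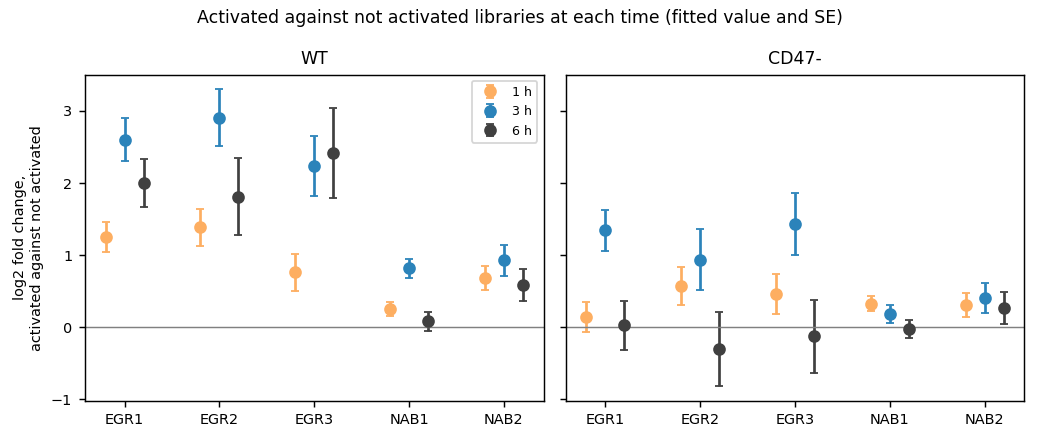
Log2 fold change of activated against not activated libraries at 1, 3 and 6 h in WT (left) and CD47- cells (right), with bars of 1 SE from the edgeR fit. EGR values in WT cells reach 2.91 at 3 h, and in CD47- cells those at 6 h lie near 0.

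TSP1 added to activated cells called no member, and no gene at all, in either line by edgeR among the 16327 genes past the low-count filter (0%), with 366 genes at an unadjusted p under 0.05 in WT and 1771 in CD47- cells. Without the filter, among 41107 genes, edgeR called 84 in WT and 401 in CD47- cells, and again no member. Among the members the largest value in WT cells was EGR3 at 0.47 (SE 0.284), where CD3+CD28+TSP1 exceeded CD3+CD28 at 1, 3 and 6 h by 0.446, 0.0484 and 1.05 on log2 CPM. In CD47- cells it was EGR1 at 0.37 (SE 0.281), with 0.0572, 0.653 and 0.311 at the same times. DESeq2 called 1 gene in WT cells, which was no member, and limma voom called 0. The difference between the lines in this effect was also called for 0% of the filtered genes, with 393 at an unadjusted p under 0.05, and for 140 genes, none a member, without the filter.

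The isoform counts of NAB2 shifted between 2 coding transcripts over time. The short isoform (ENST00000342556.6, 2318 bp) lacks exon 6 of the long isoform (ENST00000300131.8, 2491 bp), a coding exon of 192 bp, or 64 codons, that lies on chromosome 12 of GRCh38 from 57093407 to 57093598 and leaves the reading frame unchanged. The exon is shown because the short isoform lacks it. The isoforms also differ outside it, as their lengths show, and reads over the exon were not counted apart. Capitals mark the exon as GENCODE version 44, a later version than that of the counts, gives it in the long isoform. It stands between the last 15 bases of exon 5 and the first 15 of exon 7.
NAB2 exon 6, chr12:57093407-57093598, plus strand: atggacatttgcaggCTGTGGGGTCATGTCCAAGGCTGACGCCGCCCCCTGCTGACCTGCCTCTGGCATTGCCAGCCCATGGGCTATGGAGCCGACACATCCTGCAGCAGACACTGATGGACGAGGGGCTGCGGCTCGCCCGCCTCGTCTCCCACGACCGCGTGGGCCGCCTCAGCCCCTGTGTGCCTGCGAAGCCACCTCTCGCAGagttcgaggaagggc

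At 1 h in WT cells the short isoform took 74.8% of NAB2 counts untreated, 61.5% with TSP1, 72.5% with CD3+CD28 and 60.5% with CD3+CD28+TSP1. At 3 h the shares were 57.2%, 57.4% and 63.1%, and at 6 h 44.5%, 30.4% and 31.0%, with TSP1, CD3+CD28 and CD3+CD28+TSP1. The 6 h shares lay below all others, and the 2 activated libraries were the lowest. In CD47- cells the share at 1 h was 36.7% untreated, 54.4% with TSP1, 50.4% with CD3+CD28 and 53.7% with CD3+CD28+TSP1. It was 53.8%, 54.8% and 50.3% at 3 h and 47.5%, 36.1% and 32.8% at 6 h. Every CD47- share at 1 h was below every WT share at 1 h, and the untreated CD47- library overlapped the 6 h range. From 1 to 6 h the share fell by 21.0 percentage points on average over the lines, with WT means of 67.3% and 35.3% and CD47- means of 48.8% and 38.8%. In a two-sided exact permutation test that exchanged libraries within a line, p was 0.00245, and the adjusted p over the 9 isoforms compared was 0.0098. This comparison was chosen after the shares had been seen.

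Both isoforms lost mRNA, to different extents. In WT cells the short isoform went from 81.8 ± 21.7 CPM at 1 h (SD, n = 4) to 10.3 ± 1.44 at 6 h (n = 3), and the long isoform from 39.2 ± 15.3 to 19.5 ± 6.80 CPM. In CD47- cells the short isoform went from 45.3 ± 10.6 to 8.08 ± 0.928 CPM and the long isoform from 46.3 ± 10.4 to 12.8 ± 2.81 CPM. Each isoform value at 6 h rested on at least 172.7 estimated counts. Reads that fit both isoforms are divided by RSEM, so these are estimates. Over all 10 libraries the share of the short isoform was 55.3 ± 15.4% in WT and 47.1 ± 8.55% in CD47- cells and did not pass a permutation test between the lines (adjusted p = 0.184). In pairs of equal treatment and time, the CD47- share was lower in all 7 pairs at 1 and 3 h and higher in all 3 pairs at 6 h, a change of direction that was not tested.

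**Figure D5:**
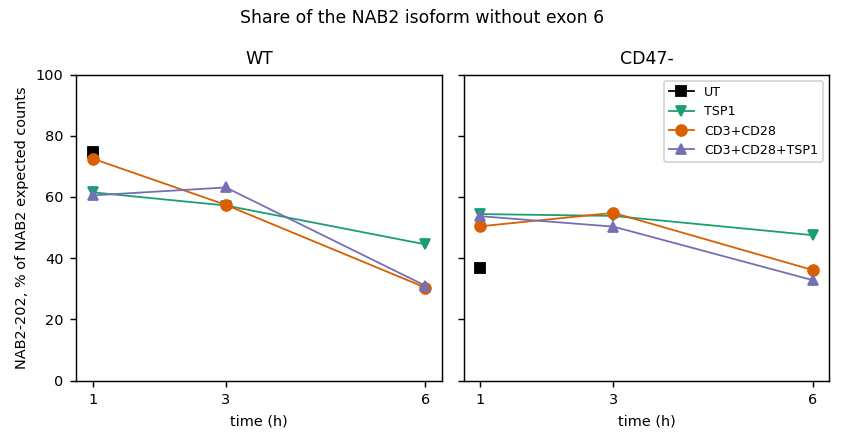
Share of NAB2 expected counts in the short isoform, without exon 6, in percent against time in h, for WT (left) and CD47- cells (right). Each point is 1 library. In WT cells the shares fall from 60.5 to 74.8% at 1 h to 30.4 to 44.5% at 6 h.

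Of the 9 isoforms compared between the lines, 2 passed a two-sided permutation test with 100000 resamples. The main EGR2 transcript (ENST00000242480.4) took 84.6 ± 8.82% of EGR2 counts in WT (n = 9 libraries with at least 20 counts) and 70.0 ± 8.59% in CD47- cells (n = 10; permutation test, adjusted p = 0.0199). At 1 h, where counts were highest, the means were 78.4% in WT and 71.1% in CD47- cells. The extreme shares came from few counts. They were 100% from 28 counts in WT with CD3+CD28 at 6 h and 54.1% from 78 counts in CD47- with CD3+CD28+TSP1 at 3 h. The CD47- shares at 6 h, 65.9%, came from 24 to 37 counts. The share of ENST00000337386.10 among NAB1 counts was 67.9 ± 1.97% in WT and 72.0 ± 4.16% in CD47- cells (n = 10 each; permutation test, adjusted p = 0.0378), and 9 of the 20 fits without 1 library lost this call. From 1 to 6 h, the share of ENST00000317216.3 among EGR3 counts fell by 14.0 percentage points (exact permutation test, adjusted p = 0.0098), in WT cells from 98.9% to 85.5% and in CD47- cells from 96.3% to 81.7%. This comparison too was chosen after the shares had been seen, so its p is not independent evidence. Of the EGR3 libraries at 6 h, 1 had under 20 counts and was left out, and the others held at most 83 counts. The CD47- library given TSP1 had a share of 60.9%, against 91.5% and 92.7% in the activated ones, and without it the change was −8.83 points (exact permutation test, adjusted p = 0.0133). With counts divided by transcript length the change was −31.9 points.

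Genes upstream and downstream were taken from lists. EGR4, the remaining EGR gene, fell at 6 h in WT cells (log2 fold change −5.44, SE 0.628, edgeR adjusted p = 7.4e-06). It also fell in the CD47- line (−2.90, edgeR adjusted p = 0.00221, SE 0.667). WT1, a related zinc finger factor, rose in WT cells at 6 h (0.93, SE 0.149, edgeR adjusted p = 0.000139) and was at 0.12 in CD47- cells (edgeR adjusted p = 0.515). Of 14 ERK and serum response genes, 4 rose and 4 fell in WT and 1 rose and 6 fell in CD47- cells at 6 h, with medians of 0.03 and −0.21, against −0.003 over all genes in both lines. Over all genes 50.5% were called in WT and 53% in CD47- cells, so these counts were near the background. The ERK1 gene MAPK3 fell by 0.94 in WT (SE 0.109) and 0.76 in CD47- cells (SE 0.108), and RASGRP1, which loads RAS in T cells, fell by 0.49 (SE 0.0859) and 1.34 (SE 0.0876). SRF, the serum response factor gene, fell by 0.58 in WT (SE 0.0653) and 0.23 in CD47- cells (SE 0.0649). This difference of 0.35 was called (SE 0.0919, edgeR adjusted p = 0.0196). For the difference between the lines at 6 h, 1 of the 14 was higher, SRF, and 2 were lower, CREB1 and RASGRP1. Over all genes 16.6% were called for that difference. Between the lines 5 of the 14 were lower in CD47- cells and 0 higher, against 20.6% of all genes called lower, and with the pair block 6 were lower and 2 higher, against 27.6% of all genes called lower. Those lower without the block included ELK1 at −0.59 (SE 0.105) and ELK3 at −0.82 (SE 0.172).

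Of 12 NuRD subunits, 2 rose and 2 fell at 6 h in WT cells and 2 rose and 6 fell in CD47- cells, against the same background of 50.5% and 53% called. CHD3, a chromatin remodeler of the complex, fell by 0.60 in WT (SE 0.0594) and 0.91 in CD47- cells (SE 0.0594). MBD3 rose by 1.68 in WT (SE 0.217) and 2.17 in CD47- cells (SE 0.225). For the difference between the lines at 6 h, 0 of the 12 were higher and 4 lower, MTA3, RBBP4 and CHD3 among them. Over all genes 16.6% were called for that difference. Between the lines 2 of the 12 were higher and 5 lower in CD47- cells, against 40.4% of all genes called. With the pair block 3 were higher and 6 lower, against 54.9%. Of 25 genes reported as EGR targets in lymphocytes, 22 were tested, and at 6 h 3 rose and 12 fell in WT cells and 4 rose and 11 fell in CD47- cells, with medians of −0.41 and −0.52. Over all genes 24.8% were lower in WT and 27% in CD47- cells. NDRG1, linked to T cell anergy, fell by 1.22 in WT (SE 0.0801) and 1.11 in CD47- cells (SE 0.0798), and NRN1, which encodes neuritin, was at −1.60 (SE 0.117) and −1.27 (SE 0.117). CDKN1A, which encodes the cell cycle inhibitor p21, fell by 2.98 in WT (SE 0.198) and 0.70 in CD47- cells (SE 0.192), a called difference of 2.28 (SE 0.275, edgeR adjusted p = 0.000121). For the difference between the lines at 6 h, 6 of the 22 were higher and 2 lower, against 16.6% of all genes called. Between the lines 9 of the 22 were higher and 4 lower in CD47- cells, against 40.4% of all genes called, and with the pair block 9 were higher and 8 lower, against 54.9%. With TSP1 on activated cells, 0 of the listed genes were called in either line.

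The genes most like EGR1 were ranked by Pearson correlation of log2 CPM over the 20 libraries after the mean of each line was removed, among 13150 genes. These values are a description, since the points share the times and treatments. The closest gene outside the family was ETV3, an ETS repressor (r = 0.961), followed by AP001107.5 (0.956), the activation marker CD69 (0.952), the ERK inhibitor SPRY2 (0.949), NCOA2 (0.948), MAP1LC3B and NPAS4 (both 0.946), KLF10 (0.943), NR4A1 (0.938) and TRIM38 (0.932). Among all genes EGR2 held place 5 (0.948), EGR3 place 11 (0.934), NAB2 place 39 (0.915) and NAB1 place 2675 (0.618). The genes most like NAB2 were TNFRSF12A, the TWEAK receptor gene, and CEMIP2 (both 0.97), LATS2, a Hippo pathway kinase (0.966), MAPKAPK2 (0.963), AKAP8L (0.962), TPM4 (0.961), AC093673.1 (0.957), HASPIN (0.955), TESK1 (0.954) and GASAL1 (0.95). For NAB2, EGR1 held place 62, NAB1 place 455, EGR2 place 550 and EGR3 place 782.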

How the data were processed

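RNA of 20 libraries was sequenced with a poly(A) kit. Per the labels and the study's methods, the authors used cutadapt 1.18 for trimming and STAR 2.4.2a for alignment to GRCh38, and deposited RSEM 1.3.3 expected counts per gene and isoform, without normalization. The strand setting is not given in the sources used here. The authors' own analysis removed a batch that is not named, and this was not repeated. Each table also holds 2 columns of no sample of the study, which were not used.

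Expected counts were rounded and tested with edgeR 4.0.16 in R 4.3.3 (filterByExpr by line with a minimum count of 10 and total of 15, TMM factors, quasi-likelihood test, Benjamini-Hochberg adjustment over 16327 genes, threshold 0.05). The lines were compared over 20 libraries. All other contrasts came from 1 model with a term for each treatment in each line and for 3 and 6 h in each line. Values by time came from a model with a mean for each line, activation state and time. Isoform shares used isoforms with a mean share of at least 10% in either line and libraries with at least 20 counts, with permutation tests in scipy. Alternatives were DESeq2 1.42.0, limma 3.58.1 voom with quantile normalization, other factors and filters, subsets of pairs, a pair block and each library left out. The edgeR tests between the lines, of 6 h and of TSP1 in WT cells and of the line difference at 6 h were run on simulated counts. These held no differences between times or treatments beyond those added. The spread over times and treatments in the comparison of the lines without the block was therefore not covered.

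The members and lists were chosen with earlier results of these data known. Named by rule are the members, CD47, up to 3 called genes of each list with the smallest p, and the 10 genes most like EGR1 and NAB2 among those whose mean log2 CPM reached 1. Promoters came from RefSeq on GRCh38.p14 and transcript lengths, exons and gene positions from GENCODE 44, a later version than the counts were made with. TRAC, CD28 and CD2, the T cell markers whose ranges did not overlap between the lines, COL1A1 and STAT6 were named after their values or positions were seen.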

Additional observations from a re-analysis of the deposited data

Results flagged for a closer look

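The fall of EGR3 from 1 to 6 h differed between the lines in the interaction test, with a log2 value of 2.08 (edgeR adjusted p = 0.0121, SE 0.497). Of the 5 members 1 was called, near the 16.6% called over all genes. The call was lost among activated libraries (edgeR adjusted p = 0.0604) and without the CD47- TSP1 library at 6 h (edgeR adjusted p = 0.0557). All WT libraries at 1 h were above 24 CPM. Those at 6 h were at 0.36 to 2.71 CPM, the lowest from 9 counts. The CD47- libraries went from 6.73 to 11.2 CPM to 1.19 to 1.41 CPM. No library of a member stood apart from the others of its line, or of its line at 1 h, in 20 groups checked by the gap to its nearest neighbor.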

How the results depend on the processing

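The counts of members called at 3 and 6 h against 1 h in each line, and of 0 members called for TSP1, were the same under all alternatives run. The number called between the lines was 1, and became 3 with DESeq2, 0 with limma voom, library totals, the 6 activated pairs or the 4 pairs without activation, 2 with at least 1 CPM in every library of a line, 5 with the replicate block of matched pairs, and 0 to 3 without 1 library. The EGR3 value, −1.80, was −1.66 with library totals, −1.84 in the activated pairs, −1.67 in those without activation and −0.996 with limma voom. Over all genes the calls were 6596 of 16327, and 6997 with DESeq2, 6855 with limma voom, 6697 with library totals, 8957 with the block, 5768 of 13342 at 1 CPM, 4067 of 16401 in the activated pairs and 2706 of 16486 in the pairs without activation. The lines share no replicate numbers for cultures, so the pairing is by condition. For the difference between the lines, 0 members at 3 h became 1 without a low-count filter (EGR3), with 0 to 1 when 1 library was left out. At 6 h, 1 member became 2 with DESeq2 or no filter (EGR3 and EGR2) and 0 among activated libraries, with 0 to 2 when 1 library was left out. The cause of these changes was not tested. NAB2 at 3 h, which was not called, turned to 0.0163 in WT and 0.0611 in CD47- cells with limma voom, to 0.0218 and 0.101 with library totals, to 0.011 in CD47- cells with upper-quartile factors and to 0.0321 in WT among activated libraries. Without 1 library the WT value ran from −0.181 to 0.0367 and the CD47- value from −0.195 to 0.131. The median activation value of the members was 1.79 in WT and 0.44 in CD47- cells. It was 0.76 at 1 h and 2.23 at 3 h in WT and 0.94 at 3 h and −0.0236 at 6 h in CD47- cells, and without 1 library the WT median lay between 1.497 and 2.481 and the CD47- median between 0.2467, without the TSP1 library at 3 h, and 0.6293. The number of isoforms called between the lines was 2, and 1 to 3 without 1 library. EGR2 and EGR3 at 6 h rest on 9 to 120 counts per library, which limits their precision.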
